A study of Rattus norvegicus with 4 samples.

Results

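Cholesterol and fatty acid metabolism was followed through 36 genes in pancreatic islets of growth-restricted and control rat pups. The genes were chosen by symbol, as every non-control probe of the array that carries one of the 36 names. All 36 were on the array and passed the filter on dim probes, so 36 of the 20012 genes or unnamed probes tested are described here, through 41 probes. They form 3 arms: 14 genes of cholesterol synthesis and its control, 9 genes of fatty acid synthesis and its control, and 13 genes grouped under fatty acid oxidation. In 5 of them (Fdps, Stard4, Me1, Elovl6 and Hadha) a pair of probes was present, and the brighter probe stood for the gene.

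Intrauterine growth restriction (IUGR) was brought about in timed-pregnant Sprague Dawley rats by tying off both uterine arteries at embryonic day 18. Control dams had sham surgery, so the dams of both groups had been operated on. Islets were isolated from the offspring at postnatal day 14, and RNA of 4 IUGR and 4 control samples was hybridised in pairs, 1 of each group, to 4 two-colour arrays. The labels give neither the sex of the pups, nor the number of animals or litters behind a sample, so the p-values measure only the spread between these samples, which may in part be technical. IUGR samples were labelled with Cy5 on arrays 1 and 2 and with Cy3 on arrays 3 and 4.

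Cholesterol is built from acetyl-CoA through mevalonate, squalene and lanosterol, and the genes of this route are switched on together by the transcription factor SREBP-2 when sterols in the endoplasmic reticulum run low. Fatty acids are built from the same acetyl-CoA by citrate lyase, acetyl-CoA carboxylase and fatty acid synthase under SREBP-1c and the glucose-sensing factor ChREBP, while their breakdown in mitochondria begins with carnitine palmitoyltransferase and is driven in fasting by PPAR-alpha. In the beta cell, malonyl-CoA made by acetyl-CoA carboxylase blocks entry of fatty acids into mitochondria and has been placed in the coupling of glucose to insulin secretion, and lasting exposure to surplus fatty acids or cholesterol impairs that secretion.

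Motifs known from this biology were looked for in the promoters of the 36 genes. RefSeq promoter sequences of assembly GRCr8 were at hand for 28 of the 36 genes, and the 250 bases before the gene start were read on both strands. CCAAT, the box bound by the factor NF-Y that works beside SREBP at sterol-regulated genes, was found in 9 of the 11 cholesterol synthesis genes with an entry, in 4 of 6 of the fatty acid synthesis genes and in 2 of 11 of the oxidation genes, against 36.1% of 27457 genes with such an entry. CACNCCAC, a core shared by many sterol response elements, was found in Insig1 and Ehhadh and in 5.35% of all genes. CACGTG, the E-box letters that SREBP and ChREBP can bind, was found in Insig1 alone among the members and in 6.18% of all genes. CACNCCAC and CACGTG overlapped neither each other nor CCAAT in the Insig1 window. These matches are descriptions of letters, not of bound sites. The 250 bases before the start are shown, 5′ to 3′ on the strand of the gene with matches in capitals, for Insig1, the member holding all 3 motifs (chr4:8057770-8058019, minus strand), for Mvk, which held 5 CCAAT boxes (chr12:47819504-47819753, minus strand), and for Cpt1a (chr1:209995910-209996159, plus strand) and Angptl4 (chr7:15258682-15258931, minus strand), the 2 oxidation genes the measurements below turn on, which held none of these letters in this window.
Insig1: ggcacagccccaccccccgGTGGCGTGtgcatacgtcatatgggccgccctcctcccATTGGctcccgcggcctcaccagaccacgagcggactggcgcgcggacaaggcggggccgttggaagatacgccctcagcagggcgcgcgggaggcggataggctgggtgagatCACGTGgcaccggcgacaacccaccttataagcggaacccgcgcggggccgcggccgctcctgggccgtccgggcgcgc
Mvk: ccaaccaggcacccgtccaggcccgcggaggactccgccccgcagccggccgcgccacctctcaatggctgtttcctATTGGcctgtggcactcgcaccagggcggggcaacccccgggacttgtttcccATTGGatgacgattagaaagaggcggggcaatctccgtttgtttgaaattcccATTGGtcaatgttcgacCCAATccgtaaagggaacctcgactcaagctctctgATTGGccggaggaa
Cpt1a: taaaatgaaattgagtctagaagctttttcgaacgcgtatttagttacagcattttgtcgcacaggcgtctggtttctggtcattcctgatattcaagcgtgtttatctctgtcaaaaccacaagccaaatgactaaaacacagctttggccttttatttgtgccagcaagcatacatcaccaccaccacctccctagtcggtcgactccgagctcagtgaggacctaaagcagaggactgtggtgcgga
Angptl4: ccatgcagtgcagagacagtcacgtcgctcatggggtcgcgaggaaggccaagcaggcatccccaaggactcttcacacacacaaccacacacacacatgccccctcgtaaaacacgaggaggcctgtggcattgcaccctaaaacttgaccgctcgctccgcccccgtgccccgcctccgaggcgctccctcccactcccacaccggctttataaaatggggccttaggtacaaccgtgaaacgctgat

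Array 1 stood apart from the other arrays, and it bears on most results below. Its IUGR channel was brighter than its control channel, by 1.68 in log2 median signal, whereas the IUGR channel was dimmer on arrays 2 to 4, by -1.58, -2.42 and -1.55. Across the 36 genes, which share libraries and are no independent replicates, pairs among arrays 2 to 4 had correlations of their ratios between r = 0.61 and r = 0.77, and array 1 had r = -0.17, -0.43 and -0.46 with arrays 2, 3 and 4. Over all genes tested the split was weaker. Pairs among arrays 2 to 4 had r between 0.37 and 0.63, and array 1 had r = 0.13, -0.23 and -0.30 with arrays 2, 3 and 4. Values with and without array 1 are therefore given for the arms and for the genes described most closely. Whether channel brightness or the samples set this pattern was not tested. Without array 1, array 2 was alone with IUGR in Cy5 and weighed as much as arrays 3 and 4 together. Between 61.8% and 77.2% of probes were well above background per channel, and 0 spots were saturated.

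Over the whole gene set, IUGR and control islets did not differ at a level that this design could call. Of the 36 genes, 18 had a mean log2 IUGR over control ratio above 0 and 18 had one below 0, with a median of 0.0065 beside 0.01 over all genes tested (53.0% of which were above 0). With limma, 0 of the 36 genes had an adjusted p under 0.05, as did 0% of all genes. The smallest adjusted p of the test, among these genes and over the array, was 0.339. At an unadjusted limma p under 0.05 there were 2 genes above 0 (Cpt1a and Acaca) and 2 below 0 (Angptl4 and Elovl6), beside 7.13% of all genes above and 6.54% below, which makes the members' share about that of the array. Ratios lay above 0 on all 4 arrays in 4 genes (Fdft1, Cyp51, Srebf1 and Cpt1a), beside 11.0% of all genes, and below 0 on all 4 arrays in 3 (Acadm, Ppara and Angptl4), beside 9.70%. Ppara passed the filter through its control samples, and 2 of its ratios were -0.0031 and -0.0051, so its sign carries no weight. In 1 gene, Cpt1a, all 4 IUGR samples lay above all 4 control samples, beside 1.37% of all genes, and in 0 genes did they all lie below, beside 1.61%.

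**Figure D1:**
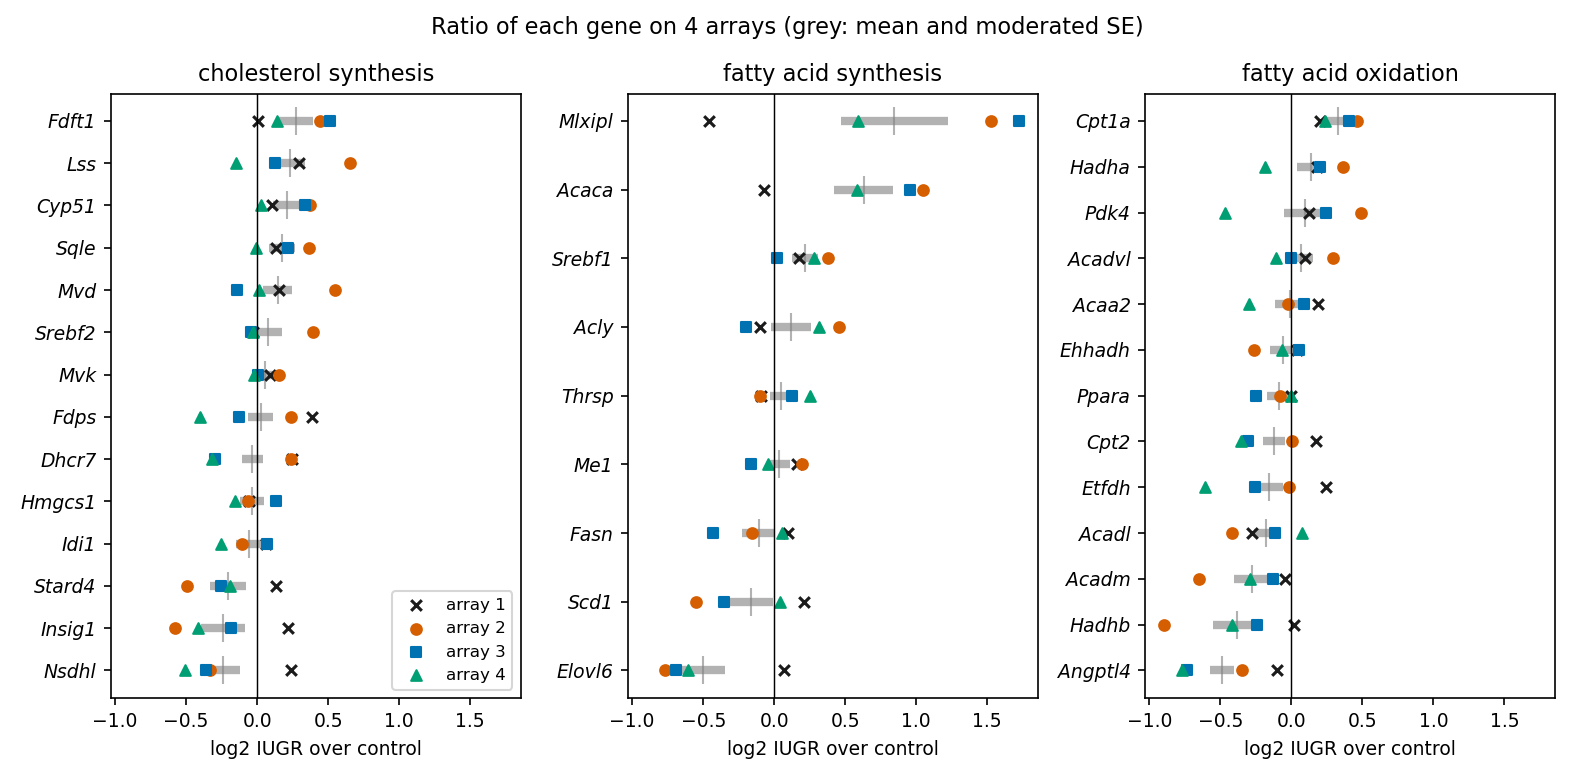
Log2 IUGR over control ratio of the 36 genes, 1 panel per arm, with 1 symbol per array and a grey bar for the mean and its moderated SE. Mlxipl reaches 1.53 and 1.72 on arrays 2 and 3 but -0.46 on array 1, and the 4 symbols of Cpt1a lie close together between 0.20 and 0.47.

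Without array 1, 5 of the 36 genes were above 0 and 8 below 0 at an unadjusted limma p under 0.05, where the same fit gave 17.3% and 13.7% of all genes. It too called 0 genes at an adjusted p under 0.05, which is 0% of the array, and the smallest adjusted p among the 36 was 0.072. The members so counted were Fdft1, Lss, Acaca, Mlxipl and Cpt1a above 0, and Insig1, Stard4, Nsdhl, Scd1, Elovl6, Acadm, Hadhb and Angptl4 below 0. Ratios of 1 sign on arrays 2 to 4 with the other sign on array 1 were seen in 2 genes above 0 (Acaca and Mlxipl), beside 16.4% of all genes, and in 6 below 0 (Insig1, Stard4, Nsdhl, Elovl6, Hadhb and Etfdh), beside 15.3%.

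The cholesterol arm had genes on both sides of 0. Its 14 genes had a median log2 ratio of 0.04, with 8 genes above and 6 below 0 and a range from -0.24 to 0.28. Without array 1 the median was 0.030. By array it was 0.13 on array 1, 0.24 on array 2, -0.02 on array 3 and -0.15 on array 4, so it lay above 0 in both arrays with IUGR in Cy5 and below 0 in both arrays with IUGR in Cy3. With arrays centred on their median in place of loess, the arm's median turned to -0.30. This shift was not particular to the arm. The medians of fatty acid synthesis and oxidation moved to -0.13 and -0.35, while the dim probes of Thrsp, Ppara and Ehhadh moved up, to 0.64, 0.46 and 0.54. None of the 14 genes (0) had an unadjusted limma p under 0.05.

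Within the arm, 4 genes of consecutive steps from squalene synthase to lanosterol demethylation had means above 0 after loess and below 0 under median centring, and Nsdhl, Insig1 and Stard4 had the lowest means. Both groupings were made after the values were seen. Fdft1, squalene synthase and the first enzyme committed to sterols, had ratios of 0.01, 0.44, 0.51 and 0.14 on arrays 1 to 4, all above 0 but on array 1 barely so, with a mean of 0.28 ± 0.12 (moderated SE, n = 4 arrays). Sqle, the squalene epoxidase, had 0.18 ± 0.09, and Lss, which folds the epoxide into lanosterol, had 0.23 ± 0.10 with -0.15 on array 4. Cyp51, which takes a methyl group off lanosterol, had ratios of 0.11, 0.37, 0.34 and 0.03, with a mean of 0.21 ± 0.10. Centred on the array median, the 4 means were -0.08 for Fdft1, -0.16 for Sqle and -0.10 for both Lss and Cyp51. Insig1, the membrane protein that retains SREBP in the endoplasmic reticulum when sterols are plentiful, had ratios of 0.22, -0.58, -0.19 and -0.41, with a mean of -0.24 ± 0.15. Stard4, a carrier of cholesterol between membranes, had 0.13, -0.50, -0.25 and -0.19, with a mean of -0.20 ± 0.13, and its second probe had -0.15. Nsdhl, an enzyme of sterol demethylation at the endoplasmic reticulum, had 0.24, -0.33, -0.36 and -0.51, with a mean of -0.24 ± 0.12. Each of the last 3 was above 0 on array 1 and below 0 on the other arrays, and without array 1 they stood at -0.44, -0.36 and -0.38 with limma adjusted p = 0.0858, 0.0991 and 0.095. Without array 2 the same 3 genes stood at -0.041, -0.045 and -0.098, and with channel brightness as a covariate at -0.037, -0.024 and -0.094. In the fit without array 2, array 1 was the only array with IUGR in Cy5 and weighed as much as arrays 3 and 4 together. The brightness covariate likewise gave array 1 the most weight and array 2 almost none, so it was no separate check. The means of these 3 genes thus depended on the weight given to array 1.

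The remaining cholesterol genes had means near 0. Hmgcs1, which makes the HMG-CoA that feeds the pathway, had -0.04 ± 0.09, with all 8 samples between 12.09 and 12.32 in log2 intensity. Mevalonate kinase Mvk had 0.06 ± 0.07, the decarboxylase Mvd had 0.14 ± 0.10 and the isomerase Idi1 had -0.06 ± 0.09. Srebf2, the gene of SREBP-2 itself, had 0.07 ± 0.10, a value that came from array 2 at 0.40, since the other 3 arrays lay between -0.04 and -0.03. Fdps, which makes farnesyl pyrophosphate, had 0.39 and 0.24 on the arrays with IUGR in Cy5 and -0.13 and -0.40 on the others. Dhcr7, the last step to cholesterol, behaved alike at 0.24, 0.24, -0.30 and -0.32, so both genes followed the dye and had means of 0.02 ± 0.09 and -0.03 ± 0.07. In all, 13 of the 36 genes had mean ratios of opposite sign in the 2 dye orientations, beside 39.4% of all genes.

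**Figure D2:**
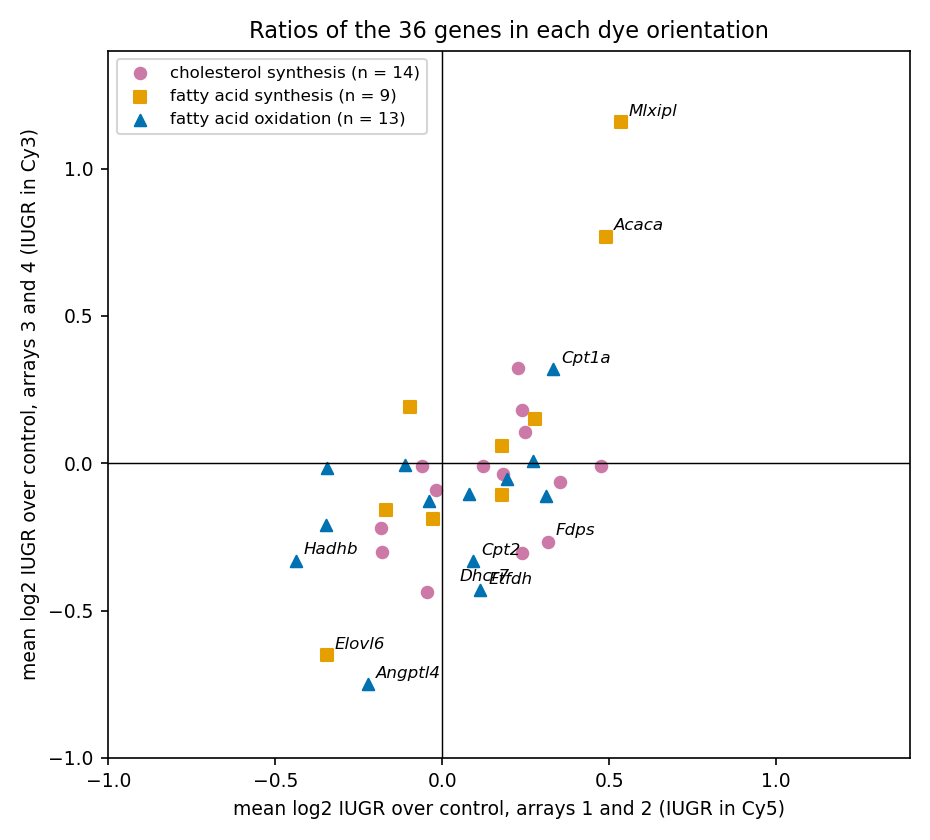
Mean log2 IUGR over control ratio of each of the 36 genes on arrays 1 and 2 (horizontal axis, IUGR in Cy5) against that on arrays 3 and 4 (vertical axis, IUGR in Cy3). Fdps, Dhcr7, Cpt2 and Etfdh lie at the lower right, where the orientations disagree, and Mlxipl, Acaca, Cpt1a, Elovl6, Hadhb and Angptl4 lie where they agree in sign.

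Of 25 further genes of cholesterol synthesis, its control and cholesterol transport, 23 were tested, 13 had ratios above 0 and 10 below 0, and the median was 0.02. At an unadjusted limma p under 0.05 there were 3 above 0 and 0 below 0, beside 7.13% and 6.54% of all genes. These 3 act in the handling rather than the making of cholesterol. Soat1, which esterifies cholesterol for storage, had 0.12, 0.16, 0.38 and 0.40 on arrays 1 to 4 (mean 0.27 ± 0.07). Npc2, which moves cholesterol out of lysosomes, had 0.35, 1.06, 0.72 and -0.0032 (mean 0.53 ± 0.18), and Abca1, which exports cholesterol from the cell, had 0.13, 1.04, 0.60 and 0.22 (mean 0.50 ± 0.18). All 3 had a limma adjusted p of 0.339. Without array 1 the list had 3 above 0 and 2 below 0 at an unadjusted limma p under 0.05, beside 17.3% and 13.7% of all genes.

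Fatty acid synthesis held genes well to both sides of 0, with Mlxipl and Acaca above and Elovl6 below, beside a median close to 0. Its 9 genes had a median log2 ratio of 0.05, with 6 above and 3 below 0, and array medians of 0.07, 0.20, -0.17 and 0.25, and the median turned to -0.13 when arrays were centred on their median and was 0.046 without array 1. At an unadjusted limma p under 0.05, 1 gene was above and 1 below 0.

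Acaca encodes acetyl-CoA carboxylase, which makes malonyl-CoA and sets the pace of fatty acid synthesis. Its probe (A_64_P231828, at 72499952 to 72500011 on chromosome 10 of rn4) read 7.40, 6.92, 7.03 and 7.01 in IUGR samples 1 to 4 and 6.99, 6.35, 6.05 and 6.45 in control samples 1 to 4, as normalised log2 intensity. Control sample 1, which shared array 1 with IUGR sample 2, lay within the IUGR range, and the other 3 control samples lay below every IUGR sample. The probe was dim, with a mean log2 intensity of 6.75 beside 6.519 for Ppara and 6.345 for Thrsp. It was well above background in 4 of 4 IUGR and 4 of 4 control samples. The ratios on arrays 1 to 4 were -0.07, 1.05, 0.96 and 0.58, with a mean of 0.63 ± 0.21 (1.55-fold, limma unadjusted p = 0.0298, adjusted p = 0.339). The mean ran from 0.29 with channel brightness as a covariate to 1.54 with Agilent's processed signals. Without array 1 it was 0.91 ± 0.13 (limma adjusted p = 0.072), and without array 2 it was 0.35 (limma adjusted p = 0.882).

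Elovl6 encodes the elongase that turns palmitate into stearate. Its main probe (A_42_P836392, at 227054046 to 227054105 on chromosome 2) read 9.38, 9.41, 9.45 and 9.21 in IUGR samples 1 to 4 and 9.34, 10.14, 9.91 and 10.06 in the controls. The IUGR samples were tightly grouped, and control sample 1 again sat among them while the other 3 controls were higher. The ratios were 0.07, -0.77, -0.69 and -0.61, with a mean of -0.50 ± 0.16 (0.708-fold, limma unadjusted p = 0.0254, adjusted p = 0.339). The second Elovl6 probe did not share the size of this difference, with ratios of -0.02, 0.01, -0.25 and -0.12 and a mean of -0.10. The mean over both probes was -0.30. Without array 1 the main probe stood at -0.71 ± 0.10 (limma adjusted p = 0.072), without array 2 at -0.29 (limma adjusted p = 0.882). A model that also held channel brightness, which left array 2 almost no weight, gave -0.26.

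Mlxipl encodes ChREBP, the glucose-sensing activator of lipogenic and glycolytic genes. Its ratio differed widely between arrays. IUGR samples 1 to 4 read 10.03, 9.04, 9.58 and 9.82, and control samples 1 to 4 read 9.50, 8.50, 8.09 and 8.98, so the groups overlapped through IUGR sample 2 and control sample 1, the 2 samples of array 1. The ratios were -0.46, 1.53, 1.72 and 0.59, with a mean of 0.85 ± 0.38 (1.80-fold, limma unadjusted p = 0.0779, adjusted p = 0.339), and 1.34 ± 0.25 without array 1 (limma adjusted p = 0.072). Without array 2 it was 0.35 (limma adjusted p = 0.882). A model that also held channel brightness, which left array 2 almost no weight, gave a mean of 0.21.

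The remaining genes of this arm differed less. Srebf1, the gene of SREBP-1, had 0.17, 0.38, 0.02 and 0.28, above 0 on every array, with a mean of 0.21 ± 0.09 that turned to -0.13 under median centring. Acly, the citrate lyase that supplies cytosolic acetyl-CoA, had 0.12 ± 0.14 with signs that split 2 and 2 over the arrays. Fasn, fatty acid synthase, had -0.11 ± 0.11 with ratios of 0.10, -0.15, -0.43 and 0.05, and Scd1, the stearoyl-CoA desaturase now named Scd in RefSeq, had -0.16 ± 0.16. Malic enzyme Me1, a source of NADPH, had 0.04 ± 0.08, and its second probe had -0.10. Thrsp, a nuclear protein that promotes lipogenesis, had 0.05 ± 0.08 and was well above background in 3 of 4 IUGR and 3 of 4 control samples. Enzyme genes that ChREBP and SREBP-1 are known to control had means from -0.50 for Elovl6, by its main probe, to 0.63 for Acaca. None of them was called.

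**Figure D3:**
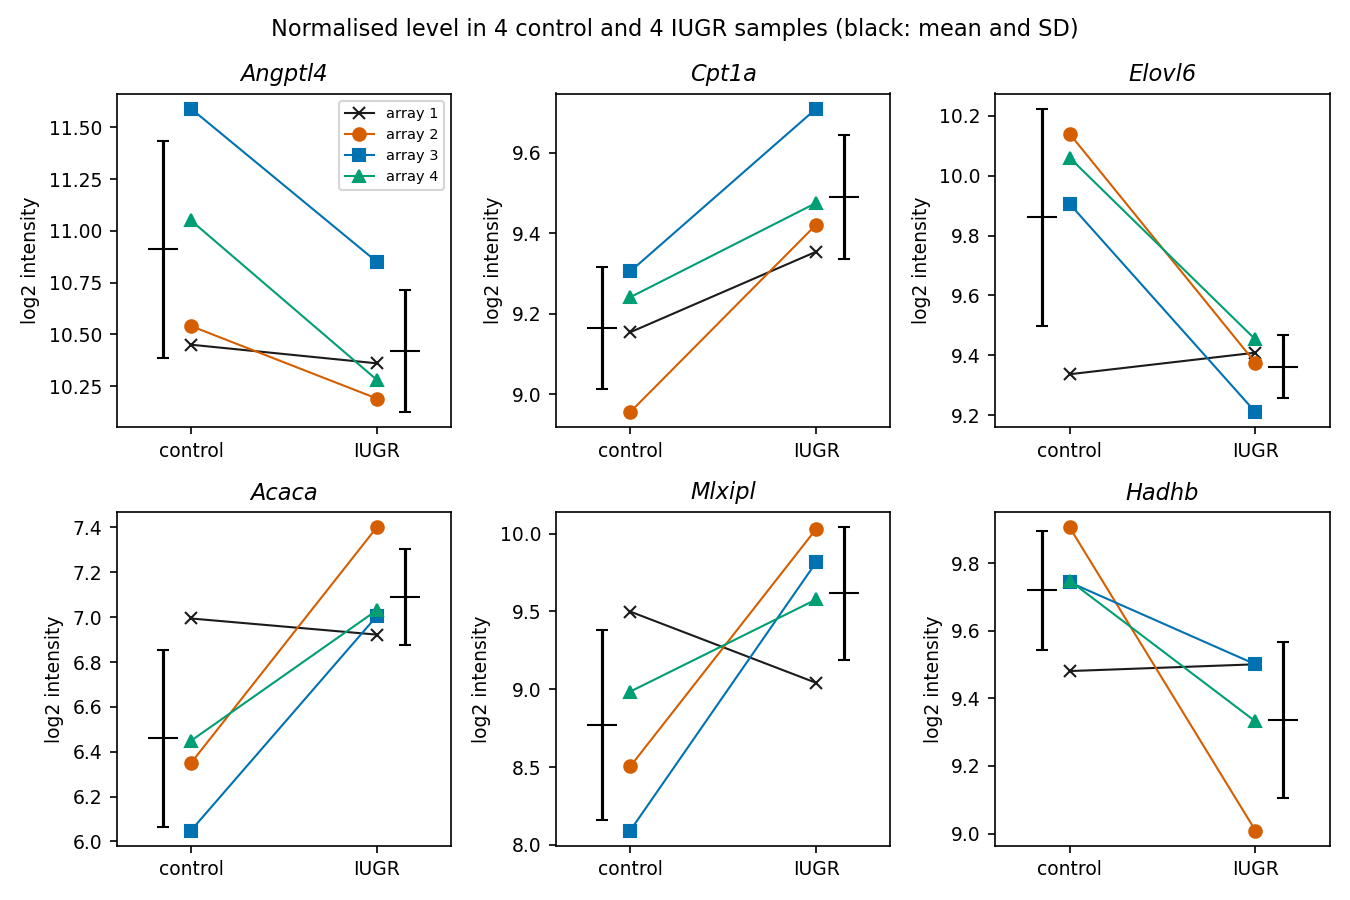
Normalised log2 intensity of 6 genes in 4 control (left) and 4 IUGR (right) samples, with lines joining the samples of 1 array and black bars for the mean and SD of each group. The line of array 1 is flat or runs against the other 3 in Elovl6, Acaca, Mlxipl and Hadhb, and all 4 lines rise in Cpt1a and descend in Angptl4.

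Of 18 further genes of fatty acid and glyceride synthesis, 16 were tested, 11 with ratios above 0 and 5 below, with a median of 0.07. At an unadjusted limma p under 0.05 there were 2 above 0 and 1 below 0, beside 7.13% and 6.54% of all genes. Slc25a1, the carrier that takes citrate out of mitochondria, had 0.25, 0.76, 0.35 and 0.13 (mean 0.37 ± 0.12). Fads2, a desaturase of polyunsaturated fatty acids, had 0.42, 0.82, 0.17 and -0.13 (mean 0.32 ± 0.11). Elovl2, an elongase of polyunsaturated fatty acids, had -0.36, -0.0068, -0.74 and -0.55 (mean -0.41 ± 0.10). Each of these 3 had a limma adjusted p of 0.339. Without array 1 the counts were 4 above 0 and 2 below 0, beside 17.3% and 13.7% of all genes.

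Fatty acid oxidation had a median ratio below 0, with its entry enzyme standing on the other side. Of its 13 genes, 4 were above and 9 below 0, with a median of -0.08 and array medians of 0.10, -0.02, -0.11 and -0.29. Under median centring the median was -0.35, and without array 1 it was -0.14. Ppara and Ehhadh, both among the 9, passed the filter on dim probes through their control samples, and over the 11 genes well above background in every channel the median was -0.12. At an unadjusted limma p under 0.05, 1 gene was above 0 and 1 below.

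Cpt1a encodes carnitine palmitoyltransferase 1A, the gate through which long-chain fatty acids enter mitochondria. Its probe (A_44_P357870, at 205912066 to 205912125 on chromosome 1, printed 10 times per array) read 9.42, 9.35, 9.48 and 9.71 in IUGR samples 1 to 4 and 9.15, 8.96, 9.31 and 9.24 in control samples 1 to 4. The lowest IUGR sample was above the highest control sample. The ratios were 0.20, 0.47, 0.40 and 0.23, with a mean of 0.33 ± 0.09 (1.25-fold, limma unadjusted p = 0.0162, adjusted p = 0.339). This gene kept its sign on array 1 and in both dye orientations, at 0.33 with IUGR in Cy5 and 0.32 with IUGR in Cy3. Median centring reduced the mean to 0.05, and the other settings gave values between 0.24 and 0.39, the latter without array 1 (limma adjusted p = 0.0941).

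Angptl4, a secreted inhibitor of lipoprotein lipase that PPARs induce in fasting, is no enzyme of oxidation but was listed with this arm. Its probe (A_64_P088382, at 16261624 to 16261683 on chromosome 7) read 10.19, 10.36, 10.28 and 10.85 in IUGR samples 1 to 4 and 10.45, 10.54, 11.59 and 11.05 in control samples 1 to 4. The groups overlapped, since IUGR sample 4 lay above control samples 1 and 2, while on each array the IUGR sample was the lower of the pair. The ratios were -0.10, -0.35, -0.73 and -0.77, with a mean of -0.49 ± 0.08 (0.713-fold, limma unadjusted p = 0.00256, adjusted p = 0.339), and the SD of the 4 ratios was 0.32. The mean ranged from -0.85 to -0.42 over the alternative settings. It was -0.22 with IUGR in Cy5, -0.75 with IUGR in Cy3 and -0.55 without array 1 (limma adjusted p = 0.072).

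The enzymes of the beta-oxidation spiral did not share a direction. Acadm, the medium-chain acyl-CoA dehydrogenase, was below 0 on all arrays, at -0.04, -0.65, -0.13 and -0.29 (mean -0.28 ± 0.13), with -0.43 without array 1 and -0.13 without array 2. Acadl, its long-chain relative, had -0.18 ± 0.08, and Acadvl, the very-long-chain one, had 0.07 ± 0.08. Hadhb, the thiolase subunit of the mitochondrial trifunctional protein, had 0.02, -0.90, -0.24 and -0.42 (mean -0.38 ± 0.17), and -0.61 ± 0.11 without array 1 (limma adjusted p = 0.072). Without array 2 it stood at -0.16. With channel brightness as a covariate, which left array 2 almost no weight, it stood at -0.14. Hadha, the other subunit of that protein, had 0.14 ± 0.10 by its main probe. The second Hadha probe read differently, with ratios of -0.25, 1.59, 1.31 and 0.33 and a mean of 0.75, and both Hadha probes are placed on the unassembled 6_random sequence of rn4, so the gene's value depends on the probe, and the counts use the main one. The thiolase Acaa2 had -0.01 ± 0.10, and the peroxisomal enzyme Ehhadh, well above background in 1 of 4 IUGR and 3 of 4 control samples, had -0.06 ± 0.09.

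Among the partners and regulators of oxidation, Cpt2, which acts after Cpt1a on the inner mitochondrial membrane, had 0.18, 0.0050, -0.31 and -0.36 (mean -0.12 ± 0.08). Etfdh, which passes electrons from the dehydrogenases to ubiquinone, had 0.24, -0.01, -0.25 and -0.61 (mean -0.16 ± 0.10). Both genes had mean ratios of opposite sign in the 2 dye orientations. Ppara, the gene of PPAR-alpha, had -0.08 ± 0.08 and was well above background in 1 of 4 IUGR samples and in 4 of 4 control samples, so its level in IUGR islets was mostly a bound. Pdk4, a kinase that shuts off pyruvate dehydrogenase and spares glucose when fat is burned, had 0.13, 0.49, 0.24 and -0.47 (mean 0.10 ± 0.15). Cpt1a, Angptl4 and Pdk4 are textbook targets of PPARs, and their means were 0.33, -0.49 and 0.10.

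**Figure D4:**
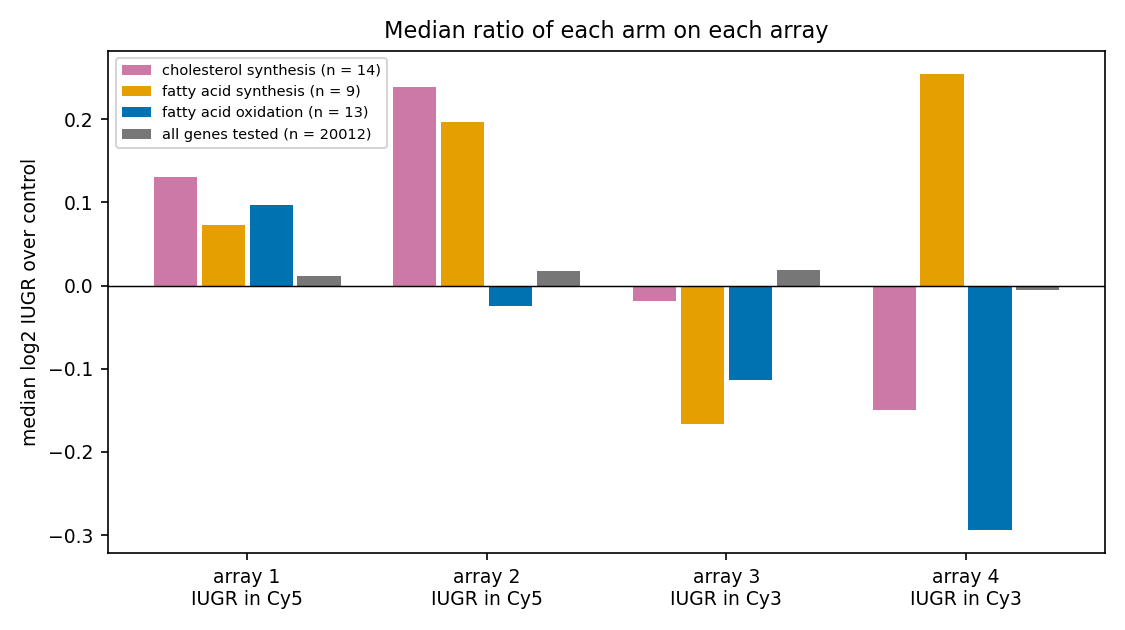
Median log2 IUGR over control ratio of each arm (coloured bars) and of all genes tested (grey bars) on each of the 4 arrays. The all-gene median stays within 0.02 of 0, and no arm has the same sign on all 4 arrays.

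All 31 further genes of oxidation were tested, 13 above and 18 below 0, with a median of -0.03. At an unadjusted limma p under 0.05 there were 0 above 0 and 4 below 0, beside 7.13% and 6.54% of all genes. Decr1, which prepares unsaturated fatty acids for oxidation, had -0.06, -0.97, -0.78 and -0.35 (mean -0.54 ± 0.18), and Acot1, a thioesterase that splits acyl-CoA, had 0.0052, -0.51, -1.05 and -0.52 (mean -0.52 ± 0.14). Acsl6, an acyl-CoA synthetase, had 0.06, -0.44, -0.60 and -0.35 (mean -0.33 ± 0.12). On array 1 these 3 genes lay between -0.06 and 0.06, and without it the list had 1 gene above 0 and 9 below 0 at an unadjusted limma p under 0.05, where the array had 17.3% and 13.7%.

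The hormone genes Ins1, Ins2, Iapp, Gcg, Sst and Ppy, which define islet cells, were well above background in all 8 samples, and markers of other cell types had ratios that differed between arrays. In bulk islet RNA, fewer cells of a type and less RNA per cell cannot be told apart. All 9 beta cell markers tested had mean ratios above 0, and the 3 brightest followed the dye: Ins1 had 1.06, 1.69, -0.98 and -0.89, Ins2 had 1.26, 1.72, -1.03 and -0.79, and Iapp had 0.62, 0.82, -0.52 and -0.38. The other 6 had means above 0 in both dye orientations. Of these, the transcription factor genes Mafa and Pdx1, named after their values were seen, had ratios of -0.24, 1.53, 1.84 and 0.63 and of -0.26, 1.06, 0.57 and 0.49. Mlxipl and Acaca showed the same signs array by array, below 0 on array 1 and above 0 on the others. The markers Nkx6-1 and Ucn3 did so too, while Slc2a2 (0.20, 0.45, 0.39 and 0.23) and Slc30a8 (0.21, 0.14, 0.46 and -0.35) did not. Such signs were seen in 16.4% of all genes. Of 8 markers of other endocrine cells, 7 were below 0. Adipocytes carry high levels of many genes described here, and of their 7 tested markers 5 were above 0, with Fabp4 at 0.55 ± 0.11, Cfd at 0.74 ± 0.14 and Lpl at -0.19 ± 0.15. Their summed signal was 11560 to 18930 in IUGR and 7625 to 15030 in control samples, and Plin1 and Lep were not among the genes tested. Without array 1, 9 of 9 beta cell and 5 of 7 adipocyte markers were above 0, as with it. All 12 acinar markers had means above 0, with an array median of 1.60 on array 3 and -0.26 on array 4. Means were above 0 in all 4 markers of red blood cells that were tested, whose array median was -0.29 on array 1 and 1.35 on array 3, and 6 of 9 macrophage markers were above 0. The part of these cell types in the ratios of the lipid genes was not tested.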

How the data were processed

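RNA of 4 IUGR and 4 control islet samples was read on 4 two-colour Agilent arrays. Per the file headers, the authors extracted the scans with Agilent Feature Extraction 10.10.1.1. The deposited scanner files hold signals and local backgrounds as intensity (pixel brightness), a log10 ratio of Cy5 over Cy3, and probe names with rn4 coordinates. The deposited value table holds log2 ratios, and no label gives their direction or normalization. Set against the ratios computed here, they run Cy5 over Cy3 (r from 0.951 to 0.983 across genes, array medians from -0.029 to 0.008), and how it was centred stays unknown. Per the submitters' processing notes limma was used, with no version or settings given.

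Here mean signals were corrected with normexp (offset 50) and normalized by loess in R 4.3.3 with limma 3.58.1. An outlying local background was replaced by the channel's median on that array, feature outliers were left out, and repeated spots were averaged. Each ratio was signed as IUGR over control, and the brightest probe stood for a gene. A gene was tested if measured on 4 arrays and well above background in at least 2 of 4 IUGR or 2 of 4 control channels. The limma model held a dye term, with 2 residual and 2.76 prior degrees of freedom, so the number of arrays limits the precision. With an array left out the dye term was kept and fewer residual degrees of freedom remained. The array then alone in its dye orientation weighed as much as the other 2 together. SEs are moderated with the dye difference taken out. P-values were adjusted by Benjamini-Hochberg over all 20012 genes, at a threshold of 0.05. Levels per sample were scaled between arrays by Aquantile. The code was tested on simulated data.

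The genes, lists and tests were chosen with earlier results of these data known. All 36 genes were named, the further pathway genes with an unadjusted p under 0.05 (at most 6 a list, with 1 not reported here), and the 3 brightest markers of a cell type where values are given. The beta cell markers Mafa, Pdx1, Nkx6-1, Ucn3, Slc2a2 and Slc30a8 were named outside this rule, Mafa and Pdx1 after their values were seen. Accessions of 40 of the 41 probes were in the RefSeq table (GRCr8), 39 under the array's symbol. Replicate numbers are shared by the groups, but samples of 1 number were not hybridised together and were not taken as pairs. Their deviations from the group mean correlated at r between -0.28 and 0.09. Samples of 1 number always carried opposite dyes, and dye effects were left in these deviations, so this check could not decide on pairing. The alternatives were median centring, Agilent's processed signals, the deposited table, the mean over probes, no and a strict filter, outlying backgrounds left out, no dye term, channel brightness as a covariate, pairing by number, and leaving out each array.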

Additional observations from a re-analysis of the deposited data

Results flagged for a closer look

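In 5 of 108 groups of 4 values (36 genes, each with its IUGR levels, control levels and array ratios), 1 value lay far from the other 3 by Dixon's criterion, which chance gives in about 1 group in 20. IUGR sample 1 stood high for Srebf2, at 12.40 in log2 intensity against 12.0 to 12.05 in the other IUGR samples, and the Srebf2 ratio of its array, array 2, was 0.3951 against -0.04 to -0.03 on the others. The same sample stood high for Lss, at 10.73 against at most 10.2 in the other IUGR samples. IUGR sample 3 stood high for Thrsp, a dim probe, at 6.551 against 6.31 to 6.32. Control sample 3 stood low for Pdk4, at 7.323 against 7.64 to 7.67.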

How the results depend on the processing

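None of the 36 genes (0) was called in any of the 14 alternative settings, and 15 kept their sign in each setting that tested them: Insig1, Mvk, Stard4, Nsdhl, Acaca, Elovl6, Thrsp, Mlxipl, Cpt1a, Cpt2, Acadm, Acadl, Hadhb, Etfdh and Angptl4. The other 21 turned in at least 1 setting. No filter, the strict filter, the fit without a dye term and the replicate block left the mean of each member they tested unchanged. Signs could not turn in those settings, so they are no test of them. Over all genes, median centring called 15 and channel brightness as a covariate called 14, against 0. Median centring moved the medians of cholesterol synthesis to -0.30 and of oxidation to -0.35 and turned 15 genes, with Sqle at -0.16, Fdps at -0.32, Fdft1 at -0.078, Lss at -0.10, Cyp51 at -0.10, Mvd at -0.18, Srebf2 at -0.27, Scd1 at 0.013, Acly at -0.27, Srebf1 at -0.13, Me1 at -0.29, Acadvl at -0.26, Hadha at -0.18, Ppara at 0.46 and Ehhadh at 0.54. The mean over probes turned Fdps at -0.017 and Me1 at -0.030. Leaving out outlying backgrounds turned Fdps at -7.2e-05 and Dhcr7 at 0.0065. Channel brightness turned Srebf2 at -0.043, Scd1 at 0.076, Ehhadh at 0.016, Pdk4 at -0.055 and Acaa2 at 0.018. Of the 36 genes, 4 had an unadjusted p under 0.05 with all arrays, 2 with Agilent's processed signals and 2 without outlying backgrounds. When an array was left out there were between 1 (without array 3) and 13 (without array 1). Over all genes the shares were 7.13% above and 6.54% below 0 with all arrays, and 17.3% and 13.7% without array 1. For the other settings, the replicate block among them, this share was not counted, so their counts cannot be set against the array. Omitting each array in turn gave arm medians from 0.0047 to 0.067 for cholesterol synthesis, 0.0055 to 0.079 for fatty acid synthesis and -0.14 to -0.065 for oxidation. These omissions turned 10 genes at least once, whose means ran -0.045 to 0.094 for Fdps, -0.033 to 0.18 for Srebf2, -0.35 to 0.027 for Scd1, -0.021 to 0.26 for Acly, -0.14 to 0.017 for Ehhadh, -0.11 to 0.084 for Acaa2, -0.23 to 0.012 for Fasn, -0.080 to 0.28 for Pdk4, -0.11 to 0.035 for Hmgcs1 and -0.14 to 0.025 for Idi1. With the replicate block, pairing samples by number, 0 genes were called and 5 of the 36 had an unadjusted p under 0.05. Pairing the same samples anew leaves each mean as it was, so no sign could turn in this setting. The cause of these shifts was not tested. Ppara, Ehhadh, Thrsp and Scd1 were not well above background in every sample, so their ratios rest partly on background.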
